A study of Mus musculus with 12 samples.

Results

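The genes described here form the amino acid and stress response driven by ATF4, a transcription factor of the integrated stress response. They were taken from a list of 44 gene symbols by matching the gene name in both processed tables. Of these symbols 43 had a row in both tables, among 19262 genes listed for TKO and WT cells and 16785 for Dox and CTL cells, and Tars is not analysed here. The 43 comprise 5 transcription factors and cofactors, 5 stress effectors, 2 secreted proteins, 7 enzymes of serine and one-carbon metabolism, 4 other amino acid enzymes, 9 transporters and 11 transfer RNA (tRNA) ligases. Messenger RNA was sequenced in 12 libraries of cultured stromal vascular fraction (SVF) cells, the non-fat cells of white adipose tissue that include fat cell progenitors, from C57BL/6 mice aged 6 weeks. TKO cells were homozygous null at all 3 miR-26 loci (miR-26b, miR-26a-2 and miR-26a-1) and their controls were WT cells, with both grown to confluency (3 libraries each). Dox cells carried M2rtTA, a doxycycline-dependent activator, and an eGFP.miR-26a transgene, and received 1 mg/ml doxycycline for 4 days. CTL cells carried the same transgenes and were left untreated (3 libraries each). No cells without the transgenes received doxycycline, so the drug and the transgene cannot be told apart.

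When amino acids run short, unfolded protein accumulates in the endoplasmic reticulum (ER) or mitochondria fail, kinases phosphorylate the translation factor eIF2. General translation then slows, while the Atf4 messenger RNA is translated more efficiently because of short reading frames upstream of its coding region. ATF4 pairs with C/EBP proteins and switches on genes that make, import and load amino acids, together with genes that restrain growth or promote death if the stress persists. Since ATF4 is controlled largely at translation, the level of Atf4 messenger RNA alone is a limited readout of its activity. miR-26 is a microRNA, which represses transcripts that hold a complement of its seed in their 3' untranslated region (UTR), and it is known as a regulator of fat cell formation.

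The values are signals, meaning the reads of a gene as a share of its library, adjusted by a factor for each library. Each comparison was tested with limma on log2(signal + 1), with p-values adjusted over all genes tested and a threshold of 0.05. Fold changes are on that log2 scale, and the + 1 understates changes of the lowest genes. All 43 members passed the filter on low values in both comparisons, in which 12649 and 12634 genes were tested. Libraries held 71455171 to 83461531 reads in TKO cells and 54978109 to 61307152 in WT cells. Every TKO library was thus deeper than every WT library. Dox and CTL libraries held 19301969 to 25785439 reads, and no member had under 43 reads in any library. The labels do not say whether replicates are separate mice or cultures, so p-values measure the spread between these samples only. miR-26 itself is not analysed here, so its loss and induction were not checked directly. Of 12 stromal and progenitor markers none rose and 2 fell in TKO cells, Thy1 at -0.86 (adjusted p 0.0043) and Pdgfrb at -0.47 (adjusted p 0.017), and their sum of 24382 to 27289.8 in TKO cells and 23405 to 25492 in WT cells consisted mostly of Col1a1 and Col1a2. The adipocyte markers Adipoq, Plin1, Cfd and Fabp4 were high in TKO replicates 1 and 2, as with Fabp4 at 83.5, 80.7 and 27.1 in TKO cells, against 25.5, 25.997 and 25.6 in WT cells and Adipoq at 15.97, 16.3 and 0.787 in TKO cells, against 1.18, 1.85 and 2.797 in WT cells, but none of the 5 tested passed. Of those 5, 4 had a log2 fold change above 0 and 1 below. The sum of the 7 adipocyte markers with a row was 1049.6, 1810.1 and 883 in TKO cells and 1304, 1106 and 1566 in WT cells. On that sum TKO replicates 1 and 3 were below every WT library. Epithelial and mesothelial markers summed to 1.296, 27.4 and 85.9 in TKO cells and 31.2, 37.7 and 14.6 in WT cells, and macrophage and leukocyte markers to 52.5 to 289 in TKO cells and 39.7 to 66.7 in WT cells. The part of other cell types in the members' values was not tested. In bulk cultures, fewer cells of a type and less RNA per cell cannot be told apart.

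The mature miR-26 sequences share 1 seed and are shown because a match to it defines the candidate sites, bases 2 to 8, in capitals (RefSeq, GRCm38.p6).
miR-26a-5p: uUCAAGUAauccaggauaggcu
miR-26b-5p: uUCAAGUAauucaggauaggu
miR-26a-5p is encoded at chr9:119031811-119031832 and chr10:126995543-126995564, and miR-26b-5p at chr1:74394324-74394344, all on the + strand.

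A match was counted as a complement of miRNA bases 2 to 8, or of bases 2 to 7 followed by an A. Such a match stood in the annotated 3' UTR of 8 of the 43 members. Of protein-coding genes tested in TKO against WT, 21.7% carried one. The 8 were Ddit4, Chac1, Cth, Slc7a11, Slc7a1, Slc38a2, Nars and Sars. In Ddit4, Nars and Sars the only match was to bases 2 to 7 with an A, not to the full seed. Matches of 8 bases, the strongest class, lay in 3 of them. These are shown with 10 bases on either side and the match in capitals, together with the 7-base match of Ddit4, the member with the highest log2 fold change of signal + 1 in TKO cells (GRCm38, messenger strand).
Chac1 (chr2:119353772-119353779, + strand): ccttactcacTACTTGAAcctttattta
Slc7a11 (chr3:50365028-50365035, - strand): tgtatattttTACTTGAAaatacttcaa
Slc38a2 (chr15:96689760-96689767, - strand): tttatgatttTACTTGAAtgtgcctaac
Ddit4 (chr10:59949919-59949925, - strand): gatcttcgacACTTGAAacaaaattac
A match is a description of the sequence and does not show binding. Of the 8 members with a match, 2 rose and 2 fell in TKO cells, while 23.2% of all genes tested were called higher and 22.7% lower. The median log2 fold change of these 8 was -0.10, against -0.08 over the 2582 protein-coding genes with a match. Under doxycycline, with replicates paired, 1 of the 8 fell (Slc7a11) and none rose, with a median of 0.03, against -0.04 over 2581 such genes. The paired fit called 0.562% of all genes higher and 1.54% lower. Slc7a11, Slc38a2 and Chac1, each with an 8-base match, had the 3 lowest log2 fold changes of the 43 under doxycycline. They were at -0.60, -0.31 and -0.21 (paired adjusted p 0.026, 0.059 and 0.47). Cth, with a 7-base match, was at 0.60 (paired adjusted p 0.094). In TKO cells Slc7a11, Slc38a2 and Chac1 were at -0.16, -0.03 and 0.21, and none passed. This ranking was not tested.

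Loss of miR-26 did not move the ATF4 genes in 1 direction. Of the 43, 13 were higher in TKO cells (30.2%), 8 were lower (18.6%) and 22 did not pass, while 23.2% of all genes tested were called higher and 22.7% lower. The median log2 fold change was -0.03 over the members and 0.00 over all genes. Members called in either direction made up 48.8%, against 45.8% of all genes, a share near the background. TKO values lay above all WT values for 14 members, below for 12 and overlapped for 17, so 60.5% did not overlap, against 58.8% of all genes. The members that moved furthest were Ddit4 at 1.47 and Gdf15 at 0.99 upward, and Nupr1 at -0.93 downward.

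The split of higher against lower depended on scaling. With a trend across transcript length and GC content removed from each library, 8 members were higher and 13 lower, while 22.4% and 23.4% of all genes were called. Length and GC content explained 15.8% of the variance of the log2 fold changes between TKO and WT cells, and 1.97% of that between Dox and CTL cells. With scaling by library size alone, which raised the median of all genes by 0.114, 14 members were higher and 3 lower, while 30.2% and 15.1% of all genes were called. With each library centred on its median gene, 11 were higher and 11 lower, while 20.5% and 26.4% of all genes were called. That centring ended the calls of Cth (adjusted p 0.056) and Yars (adjusted p 0.0543), and let Atf4, Aldh1l2 and Slc7a1 pass as lower (adjusted p 0.025 to 0.041). Calls changed by the other scalings are given beside each gene. The direction turned under at least 1 of the 3 scalings for 9 members, none of which passed as deposited (Ddit3, Chac1, Sesn2, Mthfd1l, Aldh18a1, Slc7a11, Slc38a2, Cars and Gars).

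**Figure D1:**
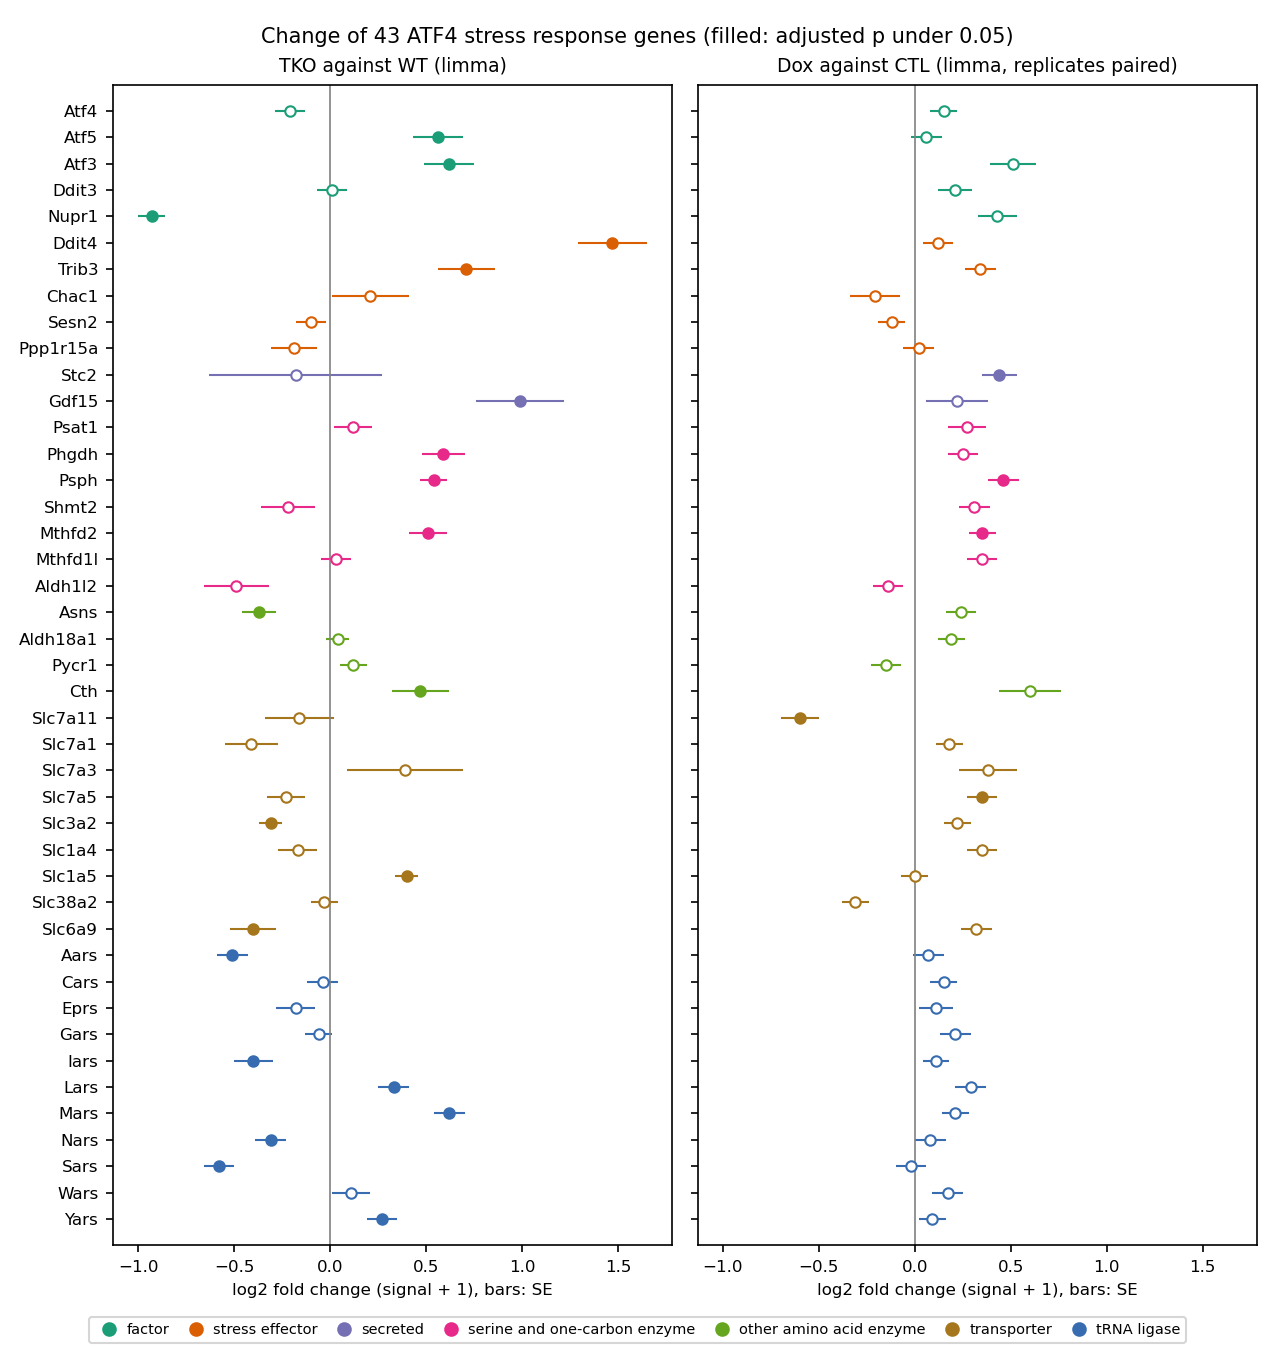
Log2 fold change of each of the 43 genes (points, bars are SE, n = 3 libraries per group) in TKO against WT on the left and in Dox against CTL with replicates paired on the right, coloured by role. In TKO cells filled points lie on both sides of 0, from -0.93 for Nupr1 to 1.47 for Ddit4, while in Dox cells 35 of 43 points lie above 0.

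Among the 5 factors, Atf5 and Atf3 rose, Nupr1 fell, and Atf4 and Ddit3 did not pass. The background was 23.2% of all genes called higher and 22.7% lower. Atf4 itself (chr15:80255184-80257541) read 275, 303 and 298 in TKO cells, against 320.1, 329 and 363 in WT cells. All TKO values were below all WT values, by -0.21 ± 0.08 (SE, adjusted p 0.063), and the change passed once the length and GC trend was removed, at -0.44 (adjusted p 0.0026). With library-size scaling Atf4 was at -0.08 (adjusted p 0.49), so its fall depended on the scaling. Ddit3, which encodes the death-promoting factor CHOP, read 63.3, 72.4 and 74.9 in TKO cells, against 70.04, 71.1 and 67.4 in WT cells. These groups overlapped, at 0.01 ± 0.08 (SE, adjusted p 0.92), but with the trend removed Ddit3 was at -0.39 (adjusted p 0.019). Nupr1 (chr7:126623249-126630861), a small stress-induced chromatin protein, read 39.2, 35.2 and 39.5 in TKO cells, against 74.3, 74.1 and 71.5 in WT cells. The groups were far apart relative to their spread, with a change of -0.93 ± 0.07 (SE, adjusted p 2.9e-04), and of -1.33 (adjusted p 3.9e-04) with the trend removed. Atf5, a relative of ATF4 linked to mitochondrial stress, read 334, 352 and 333 in TKO cells, against 187, 245 and 267 in WT cells, a change of 0.56 ± 0.13 (SE, adjusted p 0.014) that ended with the trend removed, at 0.22 (adjusted p 0.075). Atf3, a factor that feeds back on stress genes, was low throughout at 3.37, 4.03 and 3.48 in TKO cells, against 2.44, 2.02 and 1.64 in WT cells. Its groups did not overlap, at 0.62 ± 0.13 (SE, adjusted p 0.0092).

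Ddit4 and Trib3 rose among the 5 stress effectors, and Chac1, Sesn2 and Ppp1r15a did not pass. These calls stand beside 23.2% of all genes called higher and 22.7% lower. Ddit4 (chr10:59949669-59951834) encodes REDD1, which restrains the growth kinase complex mTORC1. Its signal was 77.1, 114 and 85.3 in TKO cells, against 25.8, 35.8 and 35.7 in WT cells, so the lowest TKO library was above every WT library. The change was 1.47 ± 0.18 (SE, adjusted p 0.0013), a fold of 2.78, and 1.17 (adjusted p 9.1e-04) with the trend removed. Trib3 encodes a pseudokinase that binds ATF4 and damps its activity. Trib3 was at 53.3, 71.3 and 70.7 in TKO cells, against 33.8, 38.6 and 45.6 in WT cells, again without overlap, a change of 0.71 ± 0.15 (SE, adjusted p 0.0092). Chac1, which degrades glutathione, changed by 0.21 ± 0.20 (SE, adjusted p 0.41), and Sesn2, a leucine sensor upstream of mTORC1, by -0.10 ± 0.08 (SE, adjusted p 0.33). Ppp1r15a, the phosphatase partner that reverses eIF2 phosphorylation, was at -0.19 ± 0.12 (SE, adjusted p 0.22), and it passed downward with the trend removed, at -0.32 (adjusted p 0.022).

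Of the secreted proteins, Gdf15, a hormone that suppresses appetite, had low signals of 5.11, 2.64 and 2.68 in TKO cells, against 0.988, 1.5 and 1.09 in WT cells. No TKO value reached the WT range, and the change of 0.99 ± 0.23 (SE, adjusted p 0.012) became 0.61 (adjusted p 0.088) with the trend removed. On recovered reads, without the + 1, it was 1.55 in edgeR (adjusted p 0.0093) and 1.54 in DESeq2 (adjusted p 1.8e-04), where Ddit4 was at 1.52 and 1.51. Stc2, a secreted glycoprotein, read 14.3, 53.3 and 24.7 in TKO cells, against 22.8, 30.7 and 40.1 in WT cells. The TKO libraries spread widely, with replicate 2 highest and replicate 1 below all WT libraries, and no change was detectable at -0.18 ± 0.45 (SE, adjusted p 0.77). TKO replicate 2 was also the library with the highest macrophage and leukocyte markers, at 289 summed over 10 markers, while TKO replicates 1 and 3 were at 59.4 and 52.5 and WT libraries at 39.7 to 66.7. Their part in these values was not tested.

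**Figure D2:**
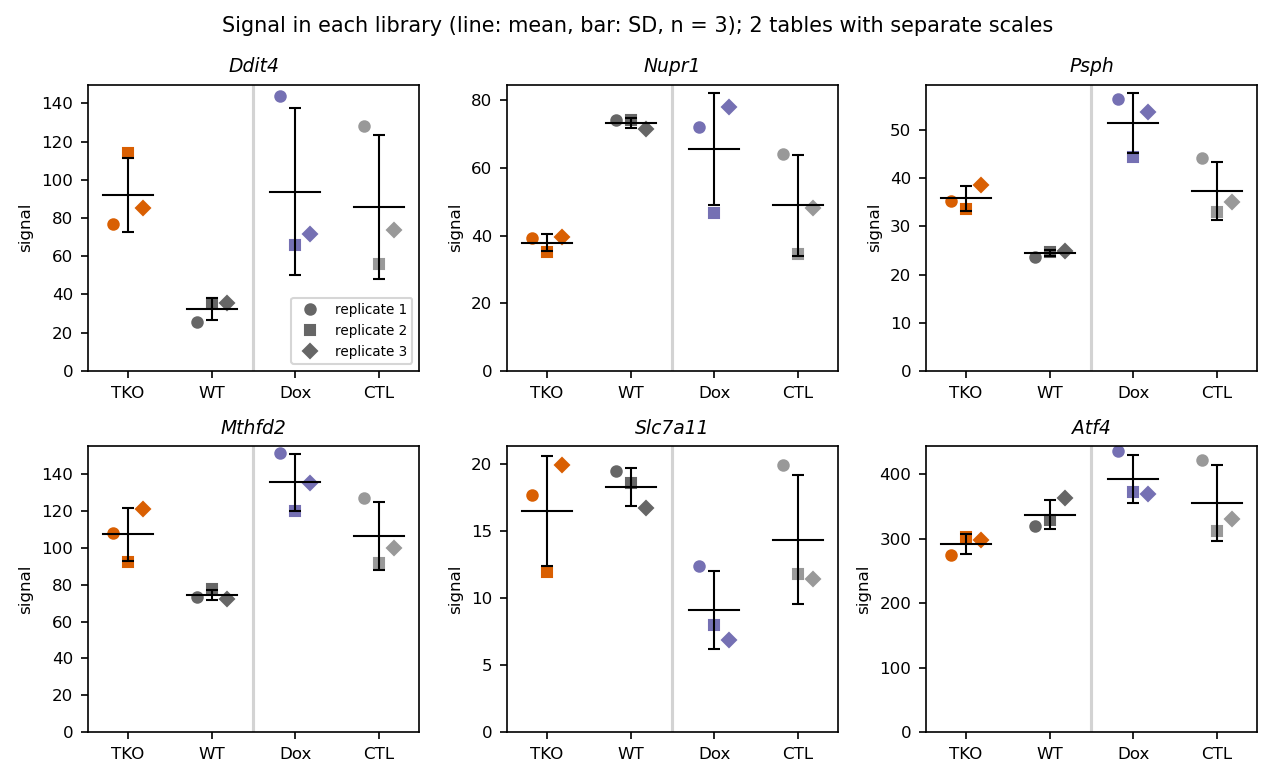
Signal of 6 genes in every library (points, shaped by replicate number), with the mean (line) and SD (bar) of each group of 3. Ddit4, Psph and Mthfd2 lie higher and Nupr1 lower in all TKO than in all WT libraries, and Slc7a11 is lower in Dox than in CTL at each replicate number; TKO and WT values and Dox and CTL values come from tables scaled separately.

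Serine is made from a glycolytic intermediate by the enzymes Phgdh, Psat1 and Psph, and mitochondrial folate enzymes pass its carbon on to nucleotide synthesis. In TKO cells 3 of these 7 genes rose and none fell, while 23.2% of all genes tested were called higher and 22.7% lower. Phgdh read 90.6, 99.2 and 120.5 in TKO cells, against 66.7, 66.99 and 70.4 in WT cells, a change of 0.59 ± 0.11 (SE, adjusted p 0.0053). Its call ended with the trend removed, at 0.32 (adjusted p 0.079), and 63.1% of its 50-base stretches also occur in pseudogenes, so its level is uncertain. Psat1 values overlapped between the groups at 0.12 ± 0.10 (SE, adjusted p 0.38). Psph (chr5:129765558-129787449), the phosphatase that completes serine synthesis, read 35.2, 33.6 and 38.7 in TKO cells, against 23.7, 24.6 and 24.9 in WT cells. Its groups were separate, at 0.54 ± 0.07 (SE, adjusted p 0.0018), and 0.32 (adjusted p 0.031) with the trend removed. The transcript overlaps Cct6a on the other strand by 452 exon bases and the strand setting of the counting is not given. Cct6a averaged 267 in TKO cells and 258 in WT cells (0.05, adjusted p 0.58), and its part in the Psph values was not tested. Mthfd2 (chr6:83305691-83325908), a mitochondrial folate enzyme high in dividing cells, read 108, 92.3 and 121 in TKO cells, against 73.4, 77.5 and 72.3 in WT cells. All TKO values exceeded all WT values, at 0.51 ± 0.10 (SE, adjusted p 0.0075). The other mitochondrial folate enzymes did not follow it. Shmt2 was at -0.22 ± 0.14 (SE, adjusted p 0.24) and passed downward with the trend removed, at -0.43 (adjusted p 0.026). Mthfd1l was at 0.03 ± 0.08 (SE, adjusted p 0.78), and Aldh1l2, with TKO values all below WT values, at -0.49 ± 0.17 (SE, adjusted p 0.0532); it shares 1056 exon bases with D10Wsu102e on the other strand, which was at 0.03 (adjusted p 0.74).

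Among the 4 other enzymes, Asns fell and Cth rose, beside 22.7% of all genes called lower and 23.2% higher. Asns, asparagine synthetase and a classic ATF4 target, read 135, 132 and 155 in TKO cells, against 189, 189 and 168 in WT cells, a change of -0.37 ± 0.09 (SE, adjusted p 0.013). Library-size scaling ended that call (adjusted p 0.0503), as did leaving out WT replicate 1 (0.0528) or WT replicate 2 (0.058). Cth, which makes cysteine from cystathionine, read 12.3, 15.01 and 18.8 in TKO cells, against 9.797, 11.2 and 11.1 in WT cells, a change of 0.47 ± 0.15 (SE, adjusted p 0.043). It did not pass with the trend removed, at 0.43 (adjusted p 0.07), or without any 1 of TKO replicates 2 and 3 or the WT libraries (0.075 to 0.13). The proline enzymes Aldh18a1 and Pycr1 were at 0.04 ± 0.06 (SE, adjusted p 0.66) and 0.12 ± 0.07 (SE, adjusted p 0.22), and Pycr1 passed upward with library-size scaling (adjusted p 0.024).

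Transporters split as well, with 1 of 9 higher and 2 lower in TKO cells, against 23.2% of all genes called higher and 22.7% lower. Slc1a5, the neutral amino acid exchanger that carries glutamine, read 179, 190.3 and 193 in TKO cells, against 139.6, 141 and 146 in WT cells. The TKO values were all higher, at 0.40 ± 0.06 (SE, adjusted p 0.0023). Slc3a2, the heavy chain shared by Slc7a5 and Slc7a11, read 162, 172 and 169.6 in TKO cells, against 208, 205 and 209.9 in WT cells, a change of -0.31 ± 0.06 (SE, adjusted p 0.0053). Slc6a9, a glycine transporter, read 30.2, 35.8 and 41.6 in TKO cells, against 45.01, 48.5 and 48.7 in WT cells, a change of -0.40 ± 0.12 (SE, adjusted p 0.029). Library-size scaling ended the calls of Slc3a2 (adjusted p 0.068) and Slc6a9 (adjusted p 0.12), and Slc6a9 also did not pass without TKO replicate 2 or any 1 WT library (0.0529 to 0.097). Slc6a9 shares 1429 exon bases with Ccdc24 on the other strand, whose mean signal was 0.239 in TKO cells and 0.1797 in WT cells. Slc7a11 (chr3:49892526-50443614), the cystine importer that feeds glutathione synthesis, read 17.7, 11.95 and 19.9 in TKO cells, against 19.5, 18.6 and 16.7 in WT cells, and its overlapping groups gave -0.16 ± 0.18 (SE, adjusted p 0.49). Slc7a5, the leucine transporter, was at -0.23 ± 0.10 (SE, adjusted p 0.1) and passed downward with the trend removed, at -0.36 (adjusted p 0.027). The remaining 4 did not pass, from -0.41 for the arginine transporter Slc7a1 (adjusted p 0.052) to 0.39 for its relative Slc7a3 (adjusted p 0.33).

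tRNA ligases charge tRNAs with their amino acid. Of the 11 measured members of the list, 3 rose and 4 fell in TKO cells, beside 23.2% and 22.7% of all genes. Mars, for methionine, read 84.7, 89.8 and 96.8 in TKO cells, against 54.97, 56.9 and 63.4 in WT cells, a change of 0.62 ± 0.08 (SE, adjusted p 0.0016). Lars, for leucine, read 151, 141 and 168 in TKO cells, against 124, 121 and 121 in WT cells, a change of 0.33 ± 0.08 (SE, adjusted p 0.013), and Yars, for tyrosine, read 98.2, 106 and 117 in TKO cells, against 89.2, 89.3 and 87.3 in WT cells, a change of 0.27 ± 0.08 (SE, adjusted p 0.027). TKO values lay above WT values for each of these genes. In the other direction, Sars, for serine, read 253, 279 and 298 in TKO cells, against 417, 432 and 395 in WT cells, a change of -0.58 ± 0.08 (SE, adjusted p 0.002). Aars, for alanine, read 417, 407 and 462 in TKO cells, against 608, 649 and 581 in WT cells, a change of -0.51 ± 0.08 (SE, adjusted p 0.0029), with 22.4% of its 50-base stretches shared with the overlapping gene Exosc6. Iars, for isoleucine, was at 228, 205 and 265 in TKO cells, against 303, 318 and 296 in WT cells, a change of -0.40 ± 0.10 (SE, adjusted p 0.018). Nars, for asparagine, was at 422, 418 and 479 in TKO cells, against 559, 553 and 524 in WT cells, a change of -0.31 ± 0.08 (SE, adjusted p 0.017). All TKO values were below all WT values for these 4 genes. Sars and Aars held under library-size scaling, which ended the calls of Iars (adjusted p 0.0546) and Nars (adjusted p 0.093). Yars ended with the trend removed, at 0.20 (adjusted p 0.059). Without WT replicate 1 or 2, Iars (0.057 and 0.072), Nars (0.067 and 0.072) and Yars (0.075 and 0.084) did not pass. Yars also did not pass without TKO replicate 3 (0.0502) or WT replicate 3 (0.083), nor Lars without WT replicate 2 (0.056). Cars, Eprs, Gars and Wars did not pass, with log2 fold changes of -0.18 to 0.11.

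**Figure D3:**
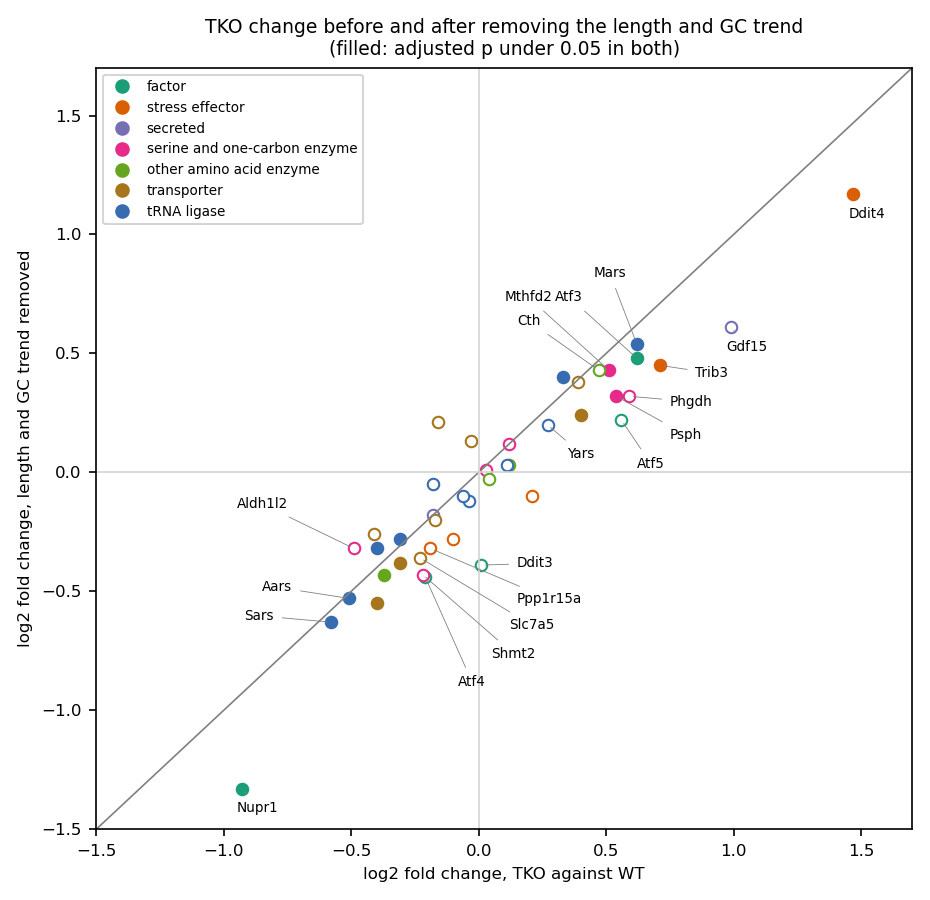
Log2 fold change in TKO against WT as deposited (x axis) and after removal of the length and GC trend (y axis), coloured by role; the diagonal marks equal values. Of the 43 members 34 lie below the diagonal, Ddit3 is at -0.39 with the trend removed and at 0.01 as deposited, and Ddit4 (1.17) and Nupr1 (-1.33) stay the extremes.

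Some promoters of ATF4 response genes are known to carry a composite C/EBP-ATF response element, and it was searched as TGATGNAA on both strands in the 250 bases before and 50 after each annotated start (RefSeq, GRCm38.p6), where no overlap with another motif was counted. It stood in 13 of the 34 members with a promoter entry (38.2%), Tars among them, against 4.51% of all genes with an entry and 3.97% of all 32851 promoters. The members were chosen as ATF4 response genes, so this share describes the list and is not a test of it. Examples are shown, each 150 bases before the start on the gene's strand with matches in capitals.
Slc7a11 (chr3:50443614-50443763, - strand): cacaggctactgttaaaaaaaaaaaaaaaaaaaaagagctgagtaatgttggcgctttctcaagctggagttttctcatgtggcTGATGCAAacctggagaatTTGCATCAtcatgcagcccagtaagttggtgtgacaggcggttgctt
Nupr1 (chr7:126625471-126625620, - strand): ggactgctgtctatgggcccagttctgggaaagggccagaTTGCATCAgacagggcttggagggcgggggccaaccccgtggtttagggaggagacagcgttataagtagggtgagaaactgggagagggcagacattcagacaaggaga
Asns (chr6:7693210-7693359, - strand): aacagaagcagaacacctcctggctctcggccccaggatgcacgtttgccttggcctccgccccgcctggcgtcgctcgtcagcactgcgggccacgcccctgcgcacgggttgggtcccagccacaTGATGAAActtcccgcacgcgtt
Atf3 (chr1:191183334-191183483, - strand): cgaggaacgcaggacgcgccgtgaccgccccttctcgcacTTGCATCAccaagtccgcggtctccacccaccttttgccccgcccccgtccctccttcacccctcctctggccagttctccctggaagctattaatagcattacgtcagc
Slc7a11 carried the element on both strands, at -66 and -47 relative to the start. The 4 genes moved apart in TKO cells, with Nupr1 and Asns lower, Atf3 higher and Slc7a11 not passing. Of the 12 tested members with a match, 3 rose and 4 fell in TKO cells, and of the 21 with an entry and no match, 6 rose and 3 fell. Over all genes 23.2% were called higher and 22.7% lower. Ddit4, Psph and Mthfd2 had no match in this window. No test of this split was made.

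Other genes of the pathway, from lists of neighbours of ATF4, also moved both ways in TKO cells, and their counts stand against 23.2% of all genes called higher and 22.7% lower. Of 16 genes for eIF2, its kinases and its exchange factor, 4 rose and 4 fell, with a median log2 fold change of 0.01. Gcn1l1, which activates the amino acid sensing kinase GCN2, rose, at 116, 109 and 122 in TKO cells, against 67.9, 75.9 and 76.7 in WT cells (0.65, adjusted p 0.0011). Eif2ak1, the heme-regulated eIF2 kinase, fell, at 59.9, 57.99 and 60.97 in TKO cells, against 86.1, 89.97 and 81.4 in WT cells (-0.52, adjusted p 0.0012), and so did the eIF2 subunit Eif2s2 (-0.60, adjusted p 0.0015). Of 4 C/EBP partners only Cebpa, a driver of fat cell formation, passed, at 61.2, 35.95 and 26.5 in TKO cells, against 13.2, 10.9 and 11.8 in WT cells (1.63, adjusted p 0.0042). Its TKO values were highest in replicates 1 and 2, the libraries with the high Adipoq, Plin1, Cfd and Fabp4 given above, and the part of such cells in its rise was not tested. Among 21 ER chaperone and degradation genes 4 rose and 5 fell, with a median of -0.11, Sdf2l1 at 1.06 (adjusted p 0.002) and Dnajb9 at -0.65 (adjusted p 8.1e-04).

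Among the lists next to the enzymes and ligases, 12 of 21 other folate and amino acid enzymes rose (57.1%) and none fell, with a median log2 fold change of 0.34, while 23.2% of all genes rose and 22.7% fell, and the same counts were reached with the trend removed. Bcat2, which degrades branched-chain amino acids, was at 0.82 (adjusted p 0.0019). Of 17 mitochondrial tRNA ligases 8 rose and none fell, with a median of 0.31, and 10 rose and 1 fell after removal of the trend. Lars2, for leucine, read 91.5, 57.7 and 81.3 in TKO cells, against 20.6, 19.2 and 24.3 in WT cells (1.78, adjusted p 6.4e-04). The 11 other cytosolic ligases and their scaffold genes split 5 up and 4 down, with a median of 0.07. Of 16 NRF2 and antioxidant genes 4 rose and 2 fell, with a median of 0.18, Ftl1, a ferritin chain, at 1.01 (adjusted p 5.9e-04) and Nfe2l2, which encodes NRF2, at -0.79 (adjusted p 6.0e-04). Of 19 mTORC1 pathway genes 5 rose and 2 fell, with a median of 0.10 and its activator Rheb at 0.37 (adjusted p 0.0029). Of 14 other amino acid transporters 2 rose and 2 fell, with a median of 0.00, Slc7a6 at 0.41 (adjusted p 0.0029) and Slc38a4 at -1.30 (adjusted p 0.012). Of 7 glucocorticoid-responsive genes 0 rose and 4 fell, with a median of -0.31, Klf9 at -0.55 (adjusted p 0.0016) among them.

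Doxycycline treatment of the miR-26a transgenic cells was the second comparison. Without pairing, limma called 0% of all genes, and so no member, with 748 genes and 6 members at an unadjusted p under 0.05. edgeR also called 0 genes, and DESeq2 called 10 genes higher and 89 lower, none of them a member. Same-numbered Dox and CTL libraries deviated together across genes, so the replicates were also compared as pairs. The labels do not say that the numbers pair samples. In that fit 0.562% of all genes were higher in Dox cells and 1.54% lower. Of the 43 members 4 were higher (9.3%) and 1 was lower (2.33%). Adding removal of the length and GC trend gave 17 higher (39.5%) and 2 lower (4.65%), against 2.94% and 4.28% of all genes.

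Small upward differences ran across most members. In Dox cells 35 of 43 had a log2 fold change above 0 (81.4%), against 52.8% of all genes, and the median was 0.21, against 0.01. The member was higher in Dox in all 3 pairs for 27 of 43 (62.8%), while 21.4% of all genes were. It was lower in all 3 pairs for 5 of 43 (11.6%), against 18.2%. Pair by pair, 30, 37 and 31 of the 43 were higher in Dox cells, against 47.5%, 55.1% and 52.3% of all genes. These genes share a regulator and the same libraries, so they are not independent and these counts were not tested. With library-size scaling 35 members were again above 0, with a median of 0.19.

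Replicate 1 was most often the highest library for the members in both groups. Among Dox libraries replicate 1 was highest for 29 of the 43 members (67.4%), and among CTL libraries for 38 (88.4%). The same share over all genes is not given here, so these counts are not shown to be particular to the members. Replicate 1 also had the highest sum of 6 epithelial and mesothelial markers, at 169.6, 44.1 and 20.7 in Dox cells and 155, 35.1 and 6.98 in CTL cells, and of the 10 macrophage and leukocyte markers, at 142, 79.5 and 29.7 in Dox cells and 168, 80.8 and 40.9 in CTL cells. Within pairs, the epithelial and mesothelial sum was higher in Dox each time. So was the sum of 6 endothelial markers, at 143, 93.98 and 76.7 in Dox cells and 109, 79.2 and 64.3 in CTL cells, with Kdr higher (0.51, paired adjusted p 0.023). The adipocyte sum was lower in Dox in each pair, at 1021, 1101 and 623 in Dox cells and 1459, 1405 and 927 in CTL cells, mostly from Lpl (-0.48, paired adjusted p 0.024). Of 12 stromal and progenitor markers 1 was higher and 1 lower in the paired fit, which called 0.562% of all genes higher and 1.54% lower. Their sum was 38297, 33378 and 31198 in Dox cells and 37677, 34628 and 30089 in CTL cells. The part of these cell types in the members' levels and in their Dox minus CTL differences was not tested. Ddit4 shows the pattern, with 144, 65.97 and 71.7 in Dox cells, against 128, 56.01 and 73.6 in CTL cells, where the spread between replicates far exceeded the difference between groups (0.12, paired adjusted p 0.48). Without replicate 1, the paired fit called 2 members higher, Nupr1 (adjusted p 0.0456) and Cth (0.0495), and 0 lower, against 0.277% and 0.784% of all genes, and the median was 0.23, against 0.02 over all genes.

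**Figure D4:**
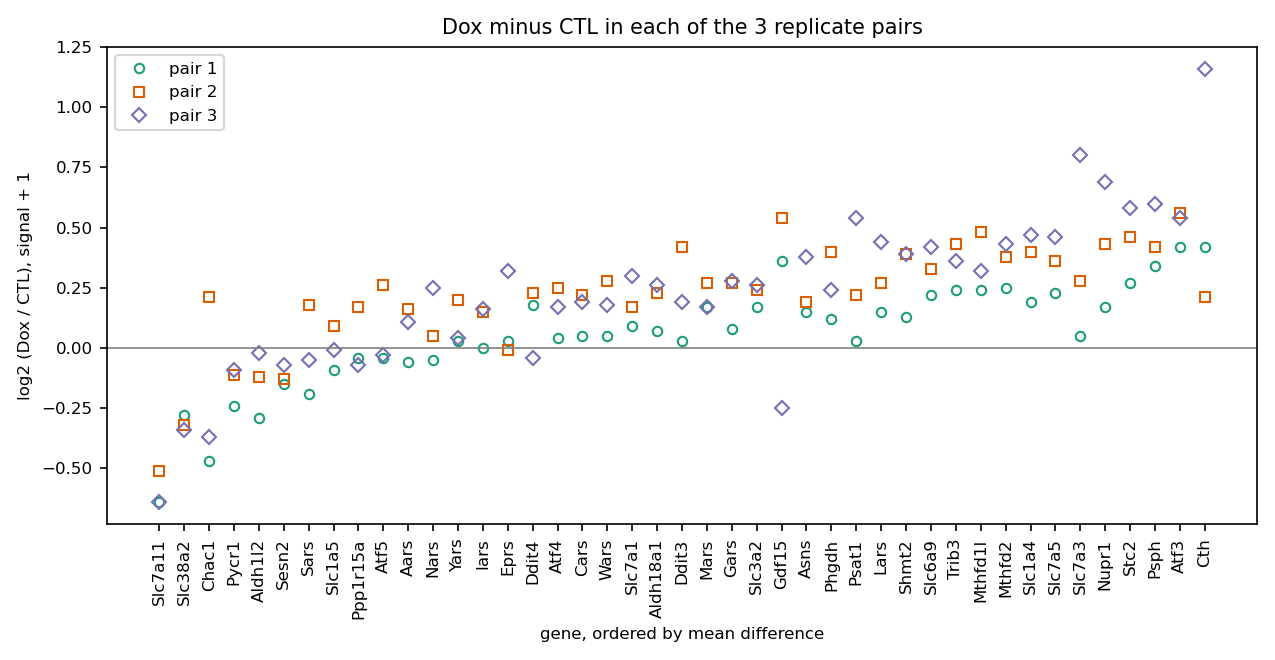
Log2 difference of Dox minus CTL signal in each of the 3 replicate pairs for the 43 genes, ordered by their mean. In 27 genes all 3 points lie above 0 and in 5 all lie below, with Slc7a11 lowest at -0.64, -0.51 and -0.64.

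The genes that passed in pairs were enzymes, transporters and 1 secreted protein. Psph read 56.4, 44.5 and 53.7 in Dox cells, against 44.2, 32.9 and 35.1 in CTL cells, with Dox above CTL in each pair and no overlap between the groups, a change of 0.46 ± 0.08 (SE, paired adjusted p 0.033). Cct6a, which overlaps Psph on the other strand, averaged 252 in Dox cells and 238 in CTL cells (0.08, paired adjusted p 0.64), and its part was not tested. Mthfd2 read 151, 119.8 and 135 in Dox cells, against 127, 91.9 and 99.6 in CTL cells, a change of 0.35 ± 0.07 (SE, paired adjusted p 0.0459). Its groups overlapped, since CTL replicate 1 exceeded Dox replicate 2, but Dox was higher in each pair. Stc2 read 42.3, 29.2 and 35.8 in Dox cells, against 34.8, 20.9 and 23.7 in CTL cells, a change of 0.44 ± 0.09 (SE, paired adjusted p 0.0459), with overlapping groups but Dox higher in each pair. Slc7a5 read 233, 211 and 259.9 in Dox cells, against 199, 164 and 188 in CTL cells, without overlap, a change of 0.35 ± 0.08 (SE, paired adjusted p 0.0497). The transporter Slc7a11 went the other way, at 12.4, 7.98 and 6.92 in Dox cells, against 19.9, 11.8 and 11.4 in CTL cells. It was lower in Dox in every pair, by -0.60 ± 0.10 (SE, paired adjusted p 0.026), although CTL replicates 2 and 3 lay below Dox replicate 1. Without replicate 1 none of these 5 passed, with adjusted p of 0.091 for Psph and 0.14 for Slc7a11. In a paired edgeR test Psph and Slc7a11 passed, and with paired library-size scaling Psph, Mthfd2, Slc7a11 and Slc38a2 did. Mthfd2 (adjusted p 0.059) and Slc7a5 (0.082) also did not pass without replicate 3.

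By role, in the paired fit 2 of 7 serine and one-carbon enzymes, 1 of 2 secreted proteins and 1 of 9 transporters were higher, and 1 transporter was lower. Over all genes that fit called 0.562% higher and 1.54% lower. None of the 5 factors, 5 stress effectors, 4 other enzymes or 11 tRNA ligases passed. Atf4 read 436, 373 and 370.4 in Dox cells, against 423, 313 and 330.1 in CTL cells, higher in each pair by a small amount (0.15, paired adjusted p 0.33). Trib3 read 142, 72.7 and 99.8 in Dox cells, against 120.3, 53.8 and 77.6 in CTL cells, higher in each pair at 0.34 ± 0.08 (SE, paired adjusted p 0.0531). Atf3 was at 0.51 ± 0.12 (SE, paired adjusted p 0.063) and Nupr1 at 0.43 ± 0.10 (SE, paired adjusted p 0.068), both higher in each pair. Slc38a2, the sodium-coupled neutral amino acid transporter, read 467, 513 and 456 in Dox cells, against 567, 641 and 576 in CTL cells. All Dox values were below all CTL values, at -0.31 ± 0.07 (SE, paired adjusted p 0.059). The further members that passed with the trend removed were Atf3, Trib3, Phgdh, Shmt2, Mthfd1l, Asns, Cth, Slc3a2, Slc1a4, Slc6a9, Gars, Lars and Mars, all higher, and Slc38a2, lower. Of the neighbouring lists 1 transporter passed, Slc36a1, at 28.7, 43.1 and 35.1 in Dox cells, against 46.5, 52.9 and 58.3 in CTL cells (-0.56, paired adjusted p 0.031). Bcat1, the cytosolic branched-chain transaminase, passed at 0.35 (paired adjusted p 0.0459). No gene of the eIF2, C/EBP, ER, NRF2, ligase, mTORC1 or glucocorticoid lists passed in that fit.

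Set side by side, 2 members passed in both comparisons in the same direction and 0 in opposite directions, while 19 passed in neither. Of the 12373 genes tested in both, 0.323% passed in both in the same direction, 0.477% in opposite directions and 52.6% in neither. The members' pair, Psph and Mthfd2, was higher both in TKO cells, null at the miR-26 loci, and in Dox cells. The Dox cells received doxycycline to induce the transgene, and its induction was not checked directly. Psph and Mthfd2 are 2 of the 21 members called in TKO cells and 2 of the 5 called in Dox cells with pairing. Nupr1 was at -0.93 in TKO against WT and at 0.43 in Dox against CTL, where it did not pass. Asns was at -0.37 between TKO and WT cells and 0.24 between Dox and CTL cells (paired adjusted p 0.15). Slc3a2 was at -0.31 between TKO and WT cells and 0.22 between Dox and CTL cells (paired adjusted p 0.14). The difference between the 2 comparisons was not tested, because their tables were scaled separately.

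Per kilobase of transcript, a scale that allows genes to be ranked, Nars, Atf4, Atf5 and Slc38a2 were the most abundant members in WT cells. Atf4 averaged 169 ± 8.67 in TKO cells and 195 ± 13.04 in WT cells in signal per kilobase (SD, n = 3 each). Atf5 averaged 187 ± 5.75 in TKO cells and 128 ± 22.9 in WT cells, and Nars 160.1 ± 12.4 in TKO cells and 199 ± 6.91 in WT cells. In WT cells Nars and Atf4 did not differ beyond their spread. The lowest were Gdf15, at 2.25 ± 0.916 in TKO cells and 0.772 ± 0.175 in WT cells, and Atf3, Slc7a3 and Slc7a11. Slc7a11 was the lowest member in CTL cells, at 0.986 ± 0.314 in Dox cells and 1.56 ± 0.522 in CTL cells.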

How the data were processed

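Per the labels' protocols, 4 groups of 3 libraries came from a strand-specific mRNA kit and were read as single 75-base ends. The submitters' processing notes list TopHat2 2.0.12, featureCounts 1.4.6, edgeR 3.8.6 and StringTie 1.2.2 without roles, and GRCm38 (mm10). Whether strand was used when reads were counted is not given in the sources used here.

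The signal values deposited by the authors behave as read counts relative to library size, adjusted by a factor for each library, and 100% of them were whole reads within 0.1 of a read once divided by the step of their library. The authors also deposited log2 fold changes, a score (the statistic of their test) and p-values, which were not used here. The tables for TKO against WT and Dox against CTL were scaled separately and were fitted apart. No column of library values (0) lacked a matching sample. The columns of Dox replicates 2 and 3 carry the same sequencing suffix, so these libraries are told apart by replicate number alone.

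Genes reaching a signal of 1 in 3 or more of 6 libraries were tested with limma 3.58.1 (R 4.3.3, trend on mean level) on log2(signal + 1), with Benjamini-Hochberg adjustment across every gene tested and a threshold of 0.05. A count test had been planned if the files held counts; since they held scaled values, edgeR 4.0.16 and DESeq2 1.42.0 on the recovered reads served as alternatives. The code was tested on simulated data. Further alternatives were a pseudocount of 0.5, no filter, library-size scaling, median centring, removal of a spline trend (5 degrees of freedom) in length and GC content, replicates as a block, and leaving out each library or pair. Depth sets the counting error only.

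Pairing was checked from the correlation of same-numbered libraries' deviations from their group means. It was 0.863, 0.584 and 0.736 for Dox and CTL replicates 1 to 3, which were therefore also fitted as pairs. It was 0.449, -0.135 and -0.293 for TKO and WT, where a replicate block served only as an alternative. The labels do not say that a replicate number pairs samples, so the pairing was inferred from the same values that were tested. Transcripts, exons and 3' UTRs came from GENCODE M21 (99.8% and 99.9% of gene IDs matched), and miRNA and promoter sequences from RefSeq (GRCm38.p6).

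The members and the 15 other lists (197 genes) were chosen with earlier results of these data known. Values in every library are given for Ddit4, Mthfd2, Slc7a11, Atf4 and each member past the threshold, and from each other list for up to 3 genes with the smallest p past the threshold; the remaining members are given so that each is accounted for. A gene of the other lists that the rule would name is not reported here.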

Additional observations from a re-analysis of the deposited data

How the results depend on the processing

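In TKO against WT, 13 members were higher and 8 lower as reported. Removing the length and GC trend gave 8 and 13, and library-size scaling gave 3 lower. Leaving out 1 library at a time gave 10 to 14 higher and 4 to 11 lower, with 4 lower without WT replicate 1 or WT replicate 2. Same-numbered TKO and WT libraries did not deviate together. With a replicate block there 12 were higher and 7 lower, against 20.6% and 19.7% of all genes. Leaving out both libraries of a number gave 4 higher and 1 lower without replicate 1. It gave 5 lower without replicate 2 and 7 higher without replicate 3. The shares over all genes in these TKO and WT leave-out fits are not given here. Their counts are thus not shown to be particular to the members. The replicate block in edgeR gave 5 lower, against 18.6% of all genes, and the block with library-size scaling 3 lower, against 13.3%. Ddit3 was at 0.01 and turned to -0.39 (adjusted p 0.019) with the trend removed. In Dox against CTL, where 0 members passed without pairing, the replicate block gave 4 higher and 1 lower, and 17 and 2 with the trend removed as well. Leaving out pairs gave 2 higher without replicate 1, where 0.277% of all genes were called higher. It gave 16 higher and 3 lower without replicate 2, and 5 higher and 1 lower without replicate 3. The shares over all genes without replicate 2 or 3 are not given here, so those counts are not shown to be particular to the members. The paired edgeR test gave 1 higher and 1 lower, against 0.285% and 1.21% of all genes. Paired library-size scaling gave 2 and 2, against 0.459% and 1.76%. These edgeR and library-size fits with a block were chosen after seeing the data. The cause of each shift was not tested. Under the pseudocount of 0.5, no filter, median centring, and edgeR and DESeq2 without a block, the counts of members called stayed within 1.5 times those reported in both comparisons. The lowest members, such as Gdf15 and Atf3, have the fewest reads, and counting error limits them most.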
